A study of Caenorhabditis elegans with 41 samples.

Results

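The oxidative phosphorylation genes described here are 40 of the 20390 genes listed in each mRNA-seq file of a Caenorhabditis elegans series on chromosomal duplications. They were picked by identifier, as genes of the pathway. There are 12 protein-coding genes of the mitochondrial DNA (identifiers starting with MTCE) and 28 nuclear genes for subunits of the respiratory chain complexes, cytochrome c and ATP synthase. The series was made to ask how extra copies of chromosome segments change mRNA levels. Its 23 mRNA-seq libraries come from whole worms of 5 strains in 8 groups, and no N2 wild-type mRNA-seq was used here.

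SP117 was sampled as young adults (3 libraries), L2-L3 larvae (4) and mixed-stage embryos (2). It carries mnDp10, a segment of the right part of chromosome X attached to chromosome I, and unc-3(e151) on X. BC4289 was sampled as young adults (3) and L2-L3 larvae (2), and carries sDp10, a segment of chromosome IV attached to X. TY1916 was sampled as embryos (3). It carries yDp11, an X segment attached to chromosome IV, with lon-2(e678) and unc-9(e101) on X. OP37 (3) holds many integrated copies of a fosmid with a GFP-tagged pha-4 gene (wgIs37), and its labels say embryos. VC100 embryos (3), with the X deletion gkDf2 and unc-112(r367), served as the embryonic reference. The labels do not say whether the libraries of a group came from separate cultures, so p-values measure the spread between these libraries. Each strain is a single line, and strain and genetic background cannot be told apart.

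The respiratory chain sits in the inner mitochondrial membrane. Complexes I and II pass electrons through complex III and cytochrome c to complex IV, protons are pumped on the way, and ATP synthase uses the proton gradient to make ATP. Most subunits are encoded in the nucleus, made in the cytoplasm and imported. Core membrane subunits of complexes I, III and IV and of ATP synthase are encoded in the mitochondrial DNA, so these need both genomes. In C. elegans, mitochondrial DNA is most abundant in the adult germ line, and mutants of several of these nuclear genes (isp-1, nuo-6, gas-1, mev-1) have altered life span or oxygen sensitivity.

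The mitochondrial genes gave no measurement. All 12 (MTCE.3, MTCE.4, MTCE.11, MTCE.12, MTCE.16, MTCE.21, MTCE.23, MTCE.25, MTCE.26, MTCE.31, MTCE.34 and MTCE.35, between 57 and 13274 of MtDNA in WS220) were listed at 0 FPKM in each of the 23 libraries. FPKM counts fragments per kilobase of transcript, scaled to the mapped fragments of the library. Each of these 276 values had the status OK and 0 were above 0. Genes that every cell uses are thus listed at 0, which is reported as listed and not as absence of mRNA. Whether reads of mitochondrial transcripts were left out at some step of the processing was not tested. No mitochondrial gene could be compared across stages or strains, or with the nuclear genes.

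The 28 nuclear genes were above 0 in every library, and all passed the filter of a mean of at least 1 FPKM in each comparison. They were 10 genes of complex I, 4 of complex II, 4 of complex III, the cytochrome c gene cyc-2.1, 4 of complex IV and 5 of ATP synthase. Of these, 3 lie on chromosome X: gas-1 (K09A9.5, X:15586744-15590329), sdha-1 (C03G5.1, X:8542813-8545974) and ucr-2.1 (VW06B3R.1, X:12018358-12021144). All positions are in WS220 (ce10). The gene gas-1 lies in the right part of X that mnDp10 duplicates in SP117, while sdha-1 and ucr-2.1 lie to its left. The ends of the other duplications were not mapped here. Whether nuo-3 (IV:14796384-14797482) and nuo-5 (V:2698967-2707037) lie in the regions of raised coverage in TY1916 was not tested.

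FPKM is scaled by length, so levels can be compared between genes. The median of the 28 group means was 255 FPKM in SP117 young adults, 419 FPKM in SP117 L2-L3 larvae and 268 FPKM in SP117 embryos. In BC4289 it was 305 FPKM in young adults and 447 FPKM in L2-L3 larvae. These are high levels: the median gene stood above 96.8% to 98.1% of all listed genes in the 8 groups. The highest was cyc-2.1, cytochrome c, in 7 of the groups, with a mean of 1567 FPKM in SP117 young adults and 3696 FPKM in SP117 L2-L3 larvae. In OP37 it was atp-1 (H28O16.1), the alpha subunit of ATP synthase, at 1601 FPKM. The lowest level was that of nduf-2.2 (T26A5.3) in the 6 groups of embryos and larvae, OP37 included, and that of sdha-1 in young adults of both strains. Together the 28 genes took between 1.01% and 1.72% of TPM (FPKM rescaled to a sum of 1000000 in each library).

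Some libraries stood apart. Depth could be read only in relative terms, as the smallest FPKM step of each library, and ran between 11.5% and 100% of the deepest one, with SP117 L2-L3 replicate 2 the shallowest. VC100 replicate 1 had a Spearman correlation of 0.94 with each of the other VC100 libraries, which correlated at 0.991 with each other, and its member median was 381 FPKM against 244 and 249.7 FPKM in those. The OP37 libraries labelled embryos correlated at 0.906 to 0.937 with L2-L3 libraries and at 0.502 to 0.704 with embryo libraries, which goes against their label, so they were set against both stages. The sum of FPKM also differed by stage. It was between 1029095 and 1163860 in young adults of both strains, between 1282338 and 1550598 in L2-L3 larvae, and between 903669 and 975018 in the other embryo libraries, leaving aside VC100 replicate 1 and OP37. TPM removes this difference, so ratios between stages shift between the scales: the median ratio of all genes in young adults over L2-L3 larvae was -0.15 (SP117) and -0.14 (BC4289) on the log2 scale of FPKM, and 0.16 and 0.40 on that of TPM. Member ratios are therefore also given relative to the median of all genes tested.

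**Figure D1:**
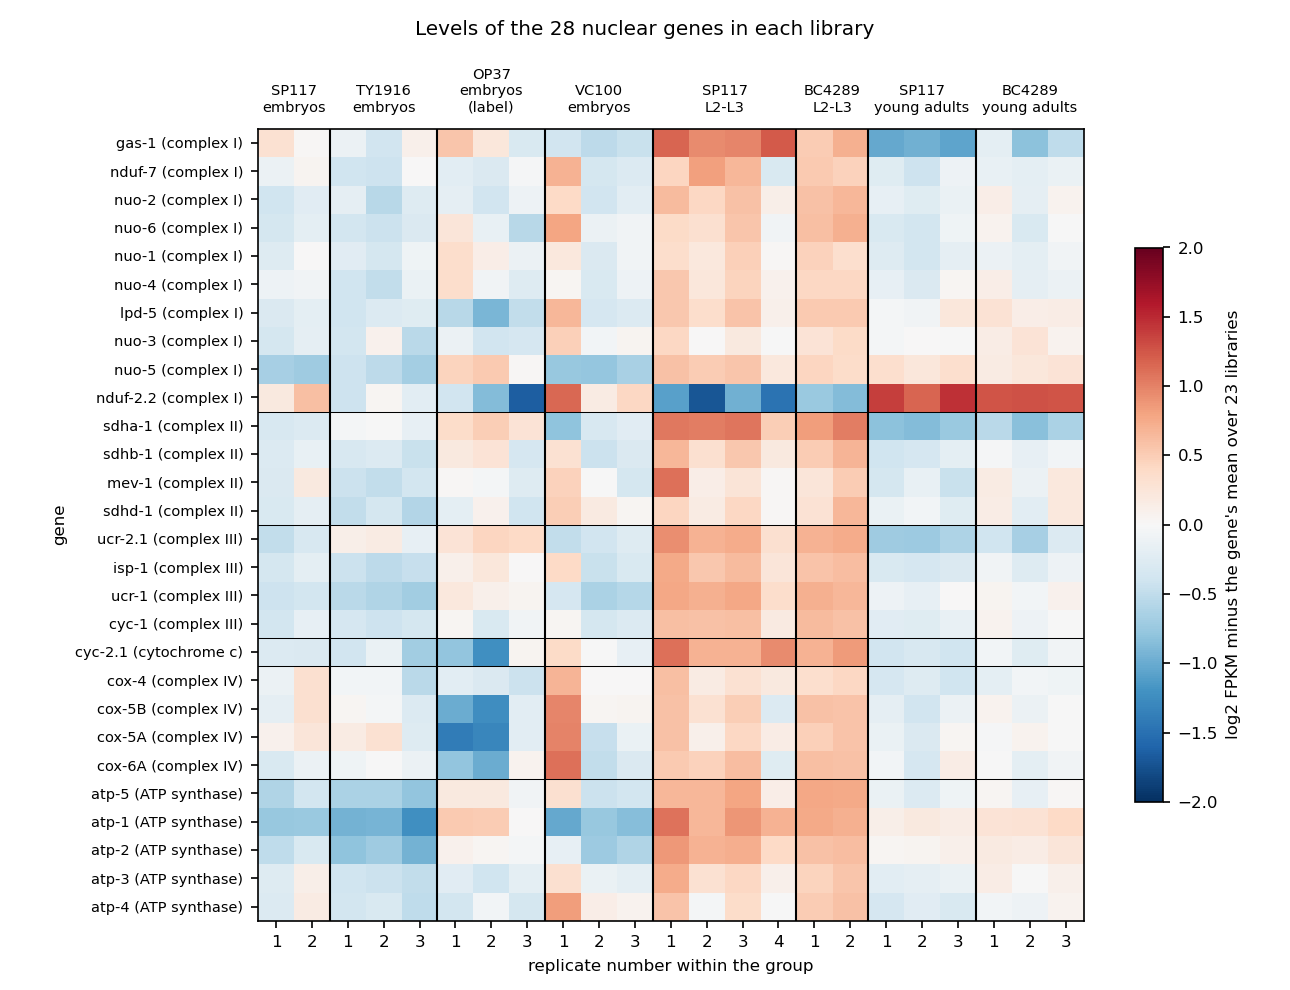
Level of each nuclear gene in each library, as log2 FPKM minus the gene's mean over the 23 libraries (colour), with genes running down by complex and libraries across by group. On this scale, which does not remove the difference in FPKM sums, L2-L3 columns are mostly red and young adult columns blue to pale for most genes, and nduf-2.2 runs the other way. VC100 replicate 1 and OP37 replicate 3 stand above the rest of their groups in complex IV genes such as cox-5B.

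In young adults of SP117, 21 of the 28 nuclear genes were lower and 1 was higher than in L2-L3 larvae (limma on log2(FPKM + 0.1), Benjamini-Hochberg adjusted p under 0.05). Over all 13593 genes tested, 40.1% were lower and 36.7% higher. In BC4289, with no library in common, 23 were lower and 1 higher, against 37.3% lower and 36.7% higher of 13722 genes. The lists of lower genes shared 19 genes, 90.5% of the SP117 list and 82.6% of the BC4289 list. Lists of 21 and 23 out of the same 28 genes share most of their genes whichever genes they hold. How many of all genes were lower in both strains was not counted. The member median was -0.61 in SP117 (0.654-fold) and -0.59 in BC4289 (0.666-fold). Relative to the median of all genes tested it was -0.47 and -0.44 on FPKM, and -0.49 in both strains on TPM. In absolute terms the scale mattered: on TPM 13 genes were lower and 1 higher in SP117, and 5 were lower and 3 higher in BC4289, where the sign of 10 genes turned, while in SP117 2 turned. Of all genes tested on TPM, 34.5% were lower and 42.5% higher in SP117, and 24.1% were lower and 46.4% higher in BC4289. In whole worms, fewer cells of a type and less mRNA per cell cannot be told apart.

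By complex, the share of genes lower on FPKM differed, beside 40.1% of all genes in SP117 and 37.3% in BC4289. Complex III had 4 of 4 genes lower in both strains, with medians of -0.80 in SP117 and -0.70 in BC4289. ATP synthase had 5 of 5 lower in both, with medians of -0.61 and -0.43. Complex II had 4 of 4 lower in SP117 and 2 of 4 in BC4289. Complex IV had 2 of 4 lower in SP117 and 4 of 4 in BC4289. Complex I had 5 of 10 lower and 1 higher in SP117, and 7 of 10 lower and 1 higher in BC4289. The 5 of 10 in complex I and 2 of 4 in complex IV of SP117 are near the share of all genes. On TPM, complex III kept 4 of 4 lower genes in SP117 and 1 in BC4289, ATP synthase 3 of 5 and 1, complex II 2 of 4 and 1, complex IV 1 of 4 and 0, and complex I 2 of 10 and 1. The 5 genes lower on TPM in BC4289 were sdha-1, ucr-2.1, gas-1, cyc-2.1 and atp-5, and the ratios of atp-1 (0.09), atp-2 (0.09) and atp-3 (0.07) turned positive without passing. The genes nuo-5 (Y45G12B.1), the large iron-sulfur subunit of complex I, and nuo-3 (Y57G11C.12) passed in neither strain, with ratios of -0.17 each in SP117, and -0.18 and -0.16 in BC4289. On TPM their ratios were 0.12 each in SP117, not past the threshold, and both were higher in BC4289 young adults, nuo-5 by 0.32 (adjusted p = 0.0214) and nuo-3 by 0.33 (adjusted p = 0.0374). The difference between the strains was tested directly, and 0 of the 28 genes passed it, beside 0.0291% of 13740 genes. In this limma test 1 member (gas-1) and 971 of all genes had an unadjusted p under 0.05.

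The largest decreases were those of the X-linked genes and cyc-2.1. The flavoprotein subunit of complex II, sdha-1, had 50.0, 48.3 and 52.8 FPKM in SP117 young adults, against 183, 181, 186 and 124 FPKM in L2-L3 larvae. In BC4289 it had 60.5, 49.7 and 56.8 FPKM in young adults, against 158 and 179 FPKM in larvae. Every adult library lay below every larval one, and the log2 ratio was -1.72 ± 0.16 (SE; limma adjusted p = 4.1e-05) in SP117 and -1.60 ± 0.12 (adjusted p = 0.000397) in BC4289. The complex III core protein gene ucr-2.1 had 126, 124 and 134 FPKM in SP117 young adults, against 390.3, 331, 343 and 258 FPKM in larvae. In BC4289 it had 156, 129.5 and 171 FPKM in young adults, against 333 and 342 FPKM in larvae. Its ratios were -1.35 ± 0.15 in SP117 and -1.16 ± 0.14 in BC4289, again without overlap between the stages.

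Cytochrome c (cyc-2.1, E04A4.7, chromosome IV) was the autosomal gene with the largest decrease. It had 1544, 1618 and 1539 FPKM in SP117 young adults, against 4345, 3274, 3273 and 3892 FPKM in L2-L3 larvae. In BC4289 the values were 1953, 1704 and 1925 FPKM in young adults, against 3280.0 and 3628 FPKM in larvae. The ratio was -1.23 ± 0.14 (limma adjusted p = 0.000108) in SP117 and -0.89 ± 0.12 (adjusted p = 0.00186) in BC4289.

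The other genes given in full changed less. In complex III, cytochrome c1 (cyc-1, C54G4.8) had 268, 265 and 285 FPKM in SP117 young adults, against 476, 472, 478 and 357 FPKM in larvae. BC4289 young adults had 332, 294 and 312 FPKM, against 491 and 470.4 FPKM in larvae. Its ratio was -0.70 in SP117 and -0.62 in BC4289, and the stages did not overlap. On TPM it was -0.41, still lower, in SP117 and -0.12 (limma adjusted p = 0.287) in BC4289, where the call was lost. In complex II the membrane anchor sdhd-1 (F33A8.5) had 342, 364 and 318 FPKM in SP117 young adults, against 507, 420.3, 503 and 383 FPKM in larvae. BC4289 young adults had 416, 324 and 437 FPKM, against 457 and 593 FPKM in larvae. Its ratio was -0.40 (adjusted p = 0.0237) in SP117 and -0.42 (adjusted p = 0.0879) in BC4289, where it did not pass. On TPM it was -0.12 and 0.08, past the threshold in neither strain.

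In complex IV, cox-4 (W09C5.8) had 726, 770.0 and 699 FPKM in SP117 young adults, against 1393, 1024, 1139 and 1052 FPKM in L2-L3 larvae. In BC4289 it had 798, 880.2 and 867 FPKM in young adults, against 1157 and 1227 FPKM in larvae. Its ratio was -0.64 in SP117 and -0.49 in BC4289, and on TPM -0.36, still lower, and 0.01, where the call was lost. The levels of cox-6A (F54D8.2) were 415, 341 and 478 FPKM in SP117 young adults, against 618, 594, 663 and 366 FPKM in larvae. Replicate 4 of the larvae lay within the adult range, and the ratio of -0.42 did not pass (limma adjusted p = 0.122). In BC4289 the gene had 428, 378 and 411 FPKM in young adults, against 658 and 646 FPKM in larvae, and the ratio of -0.68 passed. That call was lost on TPM (-0.19, adjusted p = 0.126) and when the 23 libraries were fitted together.

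In ATP synthase, the stalk subunit gene atp-5 (C06H2.1) had 603, 545 and 619 FPKM in SP117 young adults, against 1050.5, 1043, 1144 and 724 FPKM in larvae. BC4289 young adults had 679.6, 592 and 673 FPKM, against 1123 and 1117 FPKM in larvae, and its ratios were -0.73 and -0.79. The gene atp-4 (T05H4.12) had 729, 784 and 747 FPKM in SP117 young adults, against 1360.5, 895, 1189 and 912 FPKM in larvae. The levels in BC4289 were 888, 861 and 965 FPKM in young adults, against 1312 and 1385 FPKM in larvae. Its ratios were -0.51 and -0.58, with no overlap between the stages in either strain. On TPM they were -0.22 (limma adjusted p = 0.209) and -0.08 (adjusted p = 0.471), so both calls were lost, while atp-5 stayed lower in both strains (-0.44 and -0.29).

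The X-linked genes moved in the direction of most genes of that chromosome. All 3 were lower in young adults of both strains on FPKM and on TPM, with a median ratio of -1.72 in SP117 and -1.16 in BC4289. Over all X genes tested, 68.6% were lower in SP117 (median -1.31, n = 2036) and 61.3% in BC4289 (median -1.11, n = 1972). Over autosomal genes, 35.1% were lower in SP117 (median 0.12) and 33.2% in BC4289 (median 0.05). The 25 autosomal members had 18 genes lower in SP117 and 20 in BC4289 on FPKM, with medians of -0.57 and -0.53. On TPM 13 of the 28 members were lower in SP117 and 5 in BC4289, the 3 X-linked ones among them in each. The autosomal members still lower in BC4289 on TPM were cyc-2.1 and atp-5. Of all genes tested on TPM, 34.5% were lower in SP117 and 24.1% in BC4289.

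**Figure D2:**
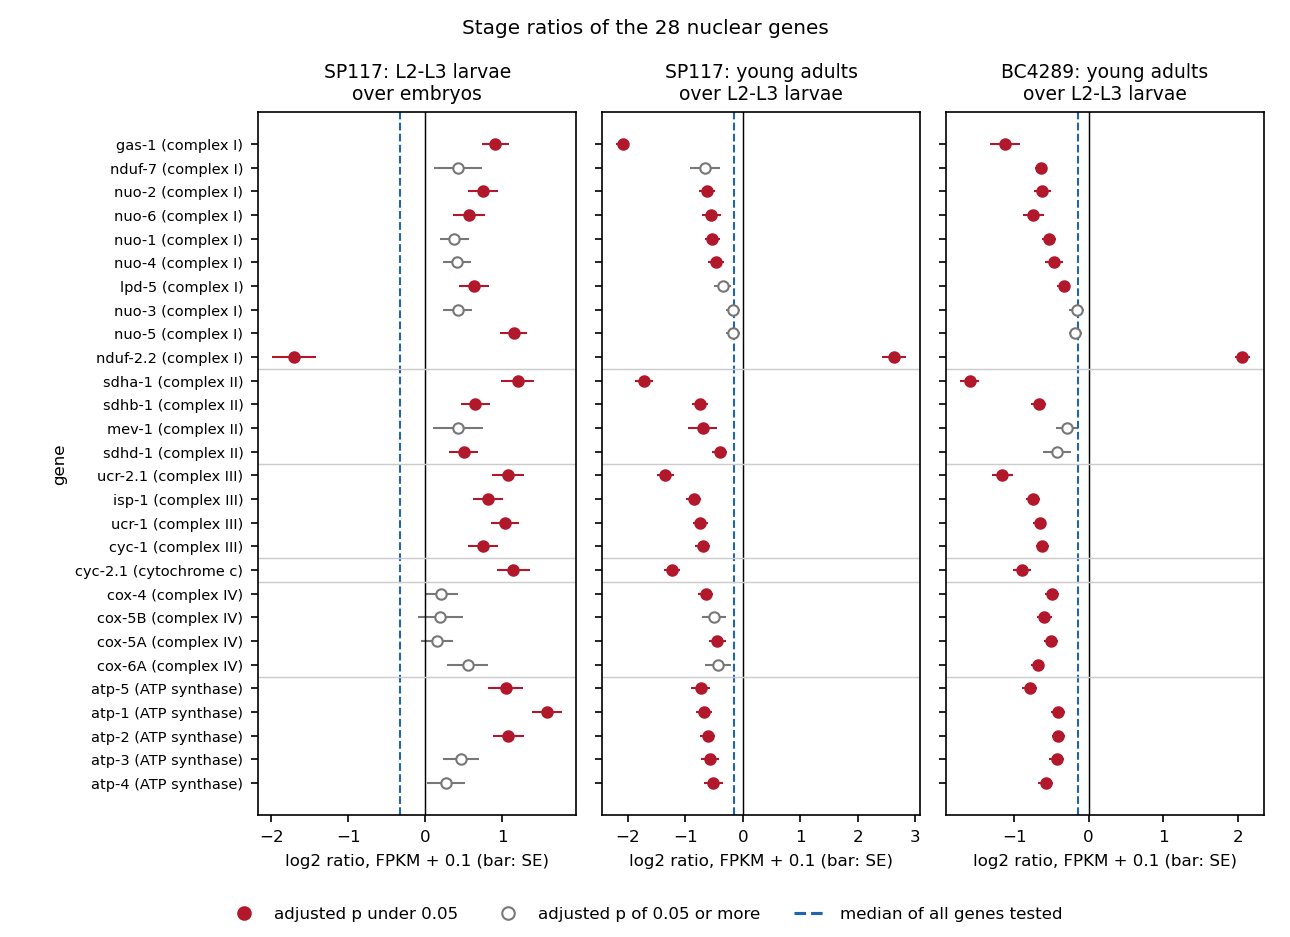
Log2 ratio (x axis, error bar 1 SE) of each nuclear gene in SP117 L2-L3 larvae over embryos, SP117 young adults over L2-L3 larvae and BC4289 young adults over L2-L3 larvae. Filled points passed an adjusted p of 0.05 and the dashed line is the median of all genes tested. Nearly all points lie right of both lines in the first panel and left of them in the others, and nduf-2.2 lies on the opposite side in each (-1.70, 2.63 and 2.06). On TPM the sign of 11, 2 and 10 genes turned.

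The gene that rose in both strains was nduf-2.2 of complex I, on chromosome III. The levels of nduf-2.2 were 64.5, 55.2 and 68.4 FPKM in SP117 young adults, against 11.6, 7.6, 12.8 and 8.86 FPKM in L2-L3 larvae. In BC4289 they were 59.5, 59.9 and 59.0 FPKM in young adults, against 14.8 and 13.5 FPKM in larvae. The adult libraries were above every larval library, 6.2-fold in SP117 (log2 ratio 2.63 ± 0.20, limma adjusted p = 1.68e-05) and 4.18-fold in BC4289 (2.06 ± 0.10, adjusted p = 0.000134). On TPM and with median-centred libraries the gene also rose in both strains.

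The complex I gene gas-1, on X, was lower in young adults of both strains. It had 63.0, 66.3 and 61.8 FPKM in SP117 young adults, against 287, 247, 254 and 301 FPKM in L2-L3 larvae, a log2 ratio of -2.09 ± 0.11 (limma adjusted p = 2.94e-06). In BC4289 it had 112, 72.6 and 90.3 FPKM in young adults, against 183 and 210.0 FPKM in larvae, a ratio of -1.12 ± 0.20 (adjusted p = 0.00513). How the counting treated reads that match several genes was not tested.

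**Figure D3:**
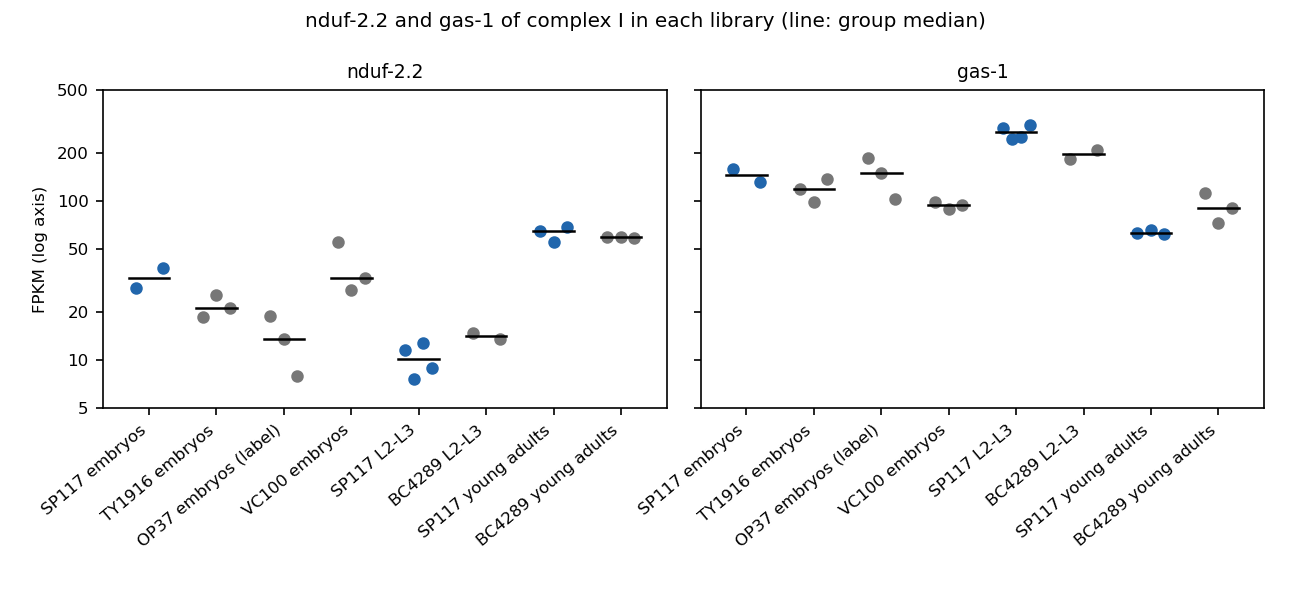
FPKM (log axis) of nduf-2.2 and gas-1 in each library by group, with the line at the group median and SP117 libraries in blue. The genes run in opposite directions with stage: among the stages of SP117 and BC4289, nduf-2.2 is lowest in L2-L3 larvae (7.6 to 14.8 FPKM) and highest in young adults (55.2 to 68.4 FPKM), and gas-1 is highest in L2-L3 larvae.

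The same SP117 larvae were also set against embryos. They stood above embryos for 16 of the 28 genes and below for 1, against 28.8% of 13532 genes higher and 40.2% lower. The member median was 0.60, the median of all genes was -0.32, and their difference was 0.92 on FPKM and 0.96 on TPM. On TPM 7 genes were higher and 1 lower, against 21.2% of all genes tested higher and 50.8% lower. The count of higher genes is near that share. The median of all genes was -0.90 on TPM, and the sign of 11 members turned. With median-centred libraries 26 were higher and 1 lower, against 4998 of 13532 genes higher and 4191 lower. The 2 embryo libraries limit this comparison: without replicate 1 of the embryos 10 genes were higher and 1 lower.

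All 4 complex III genes, cyc-2.1, 5 of 10 complex I genes, 3 of 4 complex II genes and 3 of 5 ATP synthase genes were higher in SP117 larvae. Of all genes 28.8% were higher. On TPM the higher genes were 2 of 4 in complex III, cyc-2.1, 1 of 10 in complex I, 1 of 4 in complex II and 2 of 5 in ATP synthase. There 21.2% of all genes were higher. None of the 4 complex IV genes passed on either scale. Their ratios ran between 0.16 and 0.55 on FPKM, and their median on TPM was -0.33. The largest rise was that of atp-1, with 2642, 1966, 2289 and 2008 FPKM in L2-L3 larvae, against 736 and 743 FPKM in embryos (log2 ratio 1.58 ± 0.20, limma adjusted p = 0.000266). The complex I gene nuo-5 had 155, 147, 152 and 120.0 FPKM in larvae, against 65.4 and 63.1 FPKM in embryos (1.15 ± 0.18, adjusted p = 0.000719). For sdha-1 the embryos had 70.6 and 73.4 FPKM, and larvae stood 2.3-fold higher. For cyc-2.1 they had 1671 and 1644 FPKM, and larvae stood 2.21-fold higher. These genes kept their call on TPM and with median-centred libraries. Again nduf-2.2 went the other way, at 28.4 and 37.8 FPKM in embryos, with a ratio of -1.70 ± 0.28 (adjusted p = 0.00112). For gas-1 the embryos had 159 and 131 FPKM and the ratio was 0.91 (adjusted p = 0.00246). It was 0.37 on TPM, where it did not pass.

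Markers of tissues moved with the stages. Of the 8 germ line markers, 8 were higher in young adults than in larvae of each strain, and their summed level was 1297 to 1521 FPKM in young adults, against 83.1 to 136.5 FPKM in larvae. The 7 body wall muscle markers, all lower in SP117 young adults and 6 of them in BC4289, summed to 2897 to 4241 FPKM in young adults, against 6477 to 7538 FPKM in larvae. The 5 intestinal markers, all lower in adults of both strains, summed to 3621 to 5178 FPKM in young adults, against 7259 to 9236 FPKM in larvae. Over all genes 36.7% were higher in each strain, and 40.1% (SP117) and 37.3% (BC4289) lower. On TPM 7 muscle and 5 intestinal markers were lower in SP117, and 4 and 3 in BC4289. All 8 germ line markers stayed higher in both. On TPM 34.5% of all genes were lower in SP117 and 24.1% in BC4289, and 42.5% and 46.4% higher. In SP117 embryos the sums were 351 to 512 FPKM for germ line, 704 to 1325 FPKM for muscle and 487 to 852 FPKM for intestine, and 332 to 346 FPKM for neurons. The 5 neuronal markers, of which 4 were lower in SP117 young adults (median ratio -2.52) and 5 in BC4289 (-2.57), summed to 157 to 180.1 FPKM in young adults, against 305 to 376 FPKM in larvae. On TPM 4 were lower in each strain. Their sums in SP117 larvae and embryos were alike, yet 4 were higher and 1 lower in larvae (median ratio 1.33). Of all genes 28.8% were higher and 40.2% lower there. On TPM 1 of the neuronal markers was higher and 1 lower. The 5 yolk protein genes, made in the adult intestine, reached 17610.0 to 24240.0 FPKM in young adults, and at most 17.6 FPKM in larvae. Early embryo markers summed to 3.6 to 8.78 FPKM in young adults, 9.04 to 20.9 FPKM in larvae and 192 to 221 FPKM in SP117 embryos. No defining germ line, muscle, intestinal or neuronal marker was at 0 in all libraries of a group. The part of tissue proportions in the oxidative phosphorylation values was not tested.

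Other nuclear subunit genes outside the 28 moved both ways. Of 18 tested in young adults over larvae, 5 were higher and 6 lower in SP117, and 4 were higher and 10 lower in BC4289. Over all genes 36.7% were higher in each strain, and 40.1% and 37.3% lower. The list medians were -0.35 and -0.57. On TPM 5 were higher and 3 lower in SP117, where 42.5% of all genes were higher and 34.5% lower. In BC4289 7 were higher and 6 lower on TPM, against 46.4% and 24.1% of all genes. Among the higher ones was cyc-2.2, a further cytochrome c gene, with 21.8 to 34.8 FPKM in SP117 young adults, against at most 0.492 FPKM in larvae, where it was listed at 0 in some. In BC4289 cyc-2.2 had 18.4 to 59.7 FPKM in young adults and at most 0.291 FPKM in larvae. It reached the filter of a mean of 1 FPKM only through its young adult values, so it could only be called higher. A further core protein gene of complex III, ucr-2.3 on chromosome III, had 85.1 to 95.8 FPKM in SP117 young adults, against 8.84 to 15.3 FPKM in larvae (log2 ratio 2.84). Its X-linked relative ucr-2.2 had 76.0 to 81.7 FPKM in SP117 young adults, against 296 to 361 FPKM in larvae (-2.01). In BC4289 ucr-2.2 had 91.6 to 111 FPKM in young adults, against 204 to 236 FPKM in larvae. Whether ucr-2.2 lies in the segment that mnDp10 duplicates in SP117 was not tested. In SP117 asg-2, an ATP synthase gene on X, had a ratio of -1.39. The ADP/ATP carrier genes, which exchange ATP for ADP across the inner membrane, had 2 of 3 higher and 1 lower in each strain. The lower call in BC4289 was lost on TPM. The 2 higher ones, ant-1.3 and ant-1.4, reached the filter only through their young adult values. They could therefore only be called higher, and their count is no result about the carriers. The lower one, ant-1.1, had 3957 to 4010.3 FPKM in SP117 young adults, against 6494 to 8983 FPKM in larvae (-0.88), while ant-1.3 had 6.08 to 11.5 FPKM in young adults, against at most 0.438 FPKM in larvae. The other higher one, ant-1.4, had 4.27 to 8.80 FPKM in SP117 young adults and was listed at 0 in all 4 larval libraries.

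The citric acid cycle, which feeds electrons into the chain, had 2 of 14 genes higher and 11 lower in SP117 young adults over larvae, and 2 higher and 9 lower in BC4289, beside the same shares of all genes (36.7% higher in each, 40.1% and 37.3% lower). On TPM 3 were higher and 8 lower in SP117, and 5 higher and 3 lower in BC4289. Beside this and the TPM counts that follow, 42.5% of all genes were higher and 34.5% lower in SP117 on TPM. In BC4289 these shares were 46.4% and 24.1%. The higher ones on FPKM were sucl-2 and sucg-1, subunits of succinyl-CoA ligase, with log2 ratios of 1.44 and 1.23 in SP117. Glycolysis had 4 of 18 genes higher and 8 lower in SP117, and 5 of 19 higher and 9 lower in BC4289, where 40.1% and 37.3% of all genes were lower. On TPM 5 were higher and 6 lower in SP117, and 7 higher and 4 lower in BC4289. The 70 mitochondrial ribosomal protein genes, which translate the mitochondrial mRNAs, had 11 higher and 3 lower in SP117 (median 0.17), and 4 higher and 23 lower in BC4289 (median -0.17). The direct test of the difference between the strains called 0 of the 70. On TPM 44 were higher and 1 lower in SP117, and 30 were higher and 0 lower in BC4289. The 30 of 70 is near the share of all genes. In BC4289 the list median was 0.33 on TPM, so its sign turned with the scale. The median of all genes turned likewise, from -0.14 on FPKM to 0.40 on TPM. Of 11 assembly factors 1 was higher and 1 lower in SP117, and 2 were higher and 4 lower in BC4289. On TPM 4 were higher and 1 lower in SP117, and 5 higher and 0 lower in BC4289. Of 6 genes for mitochondrial DNA maintenance and transcription, 5 were higher and 1 lower in SP117, and 3 higher and 1 lower in BC4289, where on TPM 5 were higher. In this group polg-1, the mitochondrial DNA polymerase, had ratios of 1.69 and 1.13, and twnk-1, the helicase, -3.53 and -3.31. Mitochondrial chaperone and stress response genes had 3 of 6 lower and 0 higher in each strain, among them dve-1 (-1.72 and -1.29) and atfs-1 (-0.61 and -0.71). On TPM 1 of the 6 was lower and 1 higher in SP117, and 0 passed in BC4289.

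The duplication of gas-1 in SP117 allowed 1 member to be read against copy number. In embryos gas-1 had 159 and 131 FPKM in SP117, against 98.6, 89.2 and 94.4 FPKM in VC100, 1.54-fold. In L2-L3 larvae it had 287, 247, 254 and 301 FPKM in SP117, against 183 and 210.0 FPKM in BC4289, 1.38-fold. In young adults it had 63.0, 66.3 and 61.8 FPKM in SP117, against 112, 72.6 and 90.3 FPKM in BC4289, 0.705-fold. The groups did not overlap for gas-1 in any of these comparisons, yet none passed (limma adjusted p = 0.809, 0.590 and 0.555). In the same comparisons 6, 3 and 12 of the members, gas-1 included, were without overlap. The share over all genes was not counted. On TPM the log2 ratios of gas-1 were 0.80, 0.67 and -0.51, none past the threshold. Genes starting within 1 Mb of gas-1, which share the duplication, had median folds of 1.59 in embryos (n = 198), 1.49 in larvae (n = 193) and 0.997 in young adults (n = 167). X genes left of 11 Mb, outside it, had median folds of 1.04, 0.968 and 0.959. The change of the strain difference with stage was -0.97 ± 0.22 for gas-1 (adjusted p = 0.344), and the median of its neighbours was -0.53. Without BC4289 young adult replicate 2, gas-1 was called lower in SP117 young adults. DNA-seq was not analysed here.

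SP117 was set against another strain at each stage, and the embryo comparisons of SP117, TY1916 and OP37 share the VC100 libraries. None passed in SP117 over VC100 embryos, where 0.065% of 12307 genes passed. There 1 member and 632 of all genes had an unadjusted limma p under 0.05. None passed in SP117 over BC4289 L2-L3 larvae, where 0.0389% of 12870 genes passed, with 1 member and 965 of all genes at an unadjusted p under 0.05. None passed in SP117 over BC4289 young adults, where 0.109% of 12827 genes passed, with 9 members and 1012 of all genes at an unadjusted p under 0.05. The member medians were -0.08, -0.12 and -0.17, and the medians of all genes -0.06, -0.05 and 0.03. On TPM the member medians were 0.10, 0.09 and -0.17, and those of all genes 0.12, 0.15 and 0.03. The sign of the embryo and larval member medians thus depends on the scale, as does that of all genes. In the young adults 25 of 28 ratios were below 0 on both scales. The share of all genes below 0 was not counted.

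In TY1916 over VC100 embryos 1 gene was lower, sdhd-1, a membrane anchor of complex II, against 8.76% of 13118 genes lower. It had 269, 294 and 251 FPKM in TY1916, against 529.7, 424 and 387 FPKM in VC100. The groups did not overlap, and the ratio was -0.71 ± 0.20 (limma adjusted p = 0.0395). The call was lost when any library other than VC100 replicate 1 was left out. Without VC100 replicate 1 the genes sdhd-1 and atp-4 passed. The member median was -0.31, and -0.12 without VC100 replicate 1, while the median of all genes was 0.11. On TPM these medians were -0.19 and 0.23, and sdhd-1 and atp-4 were lower, against 874 of 13135 genes lower. The X-linked members gas-1, sdha-1 and ucr-2.1 had ratios of 0.32, 0.38 and 0.42, none past the threshold, beside a median of 0.62 over X genes and 0.02 over autosomal genes. Markers moved here too: muscle markers summed to 2054 to 2788 FPKM in TY1916, against 779 to 838 FPKM in VC100, and germ line markers to 156 to 324 FPKM in TY1916, against 472 to 499 FPKM in VC100. Their part in these values was not tested.

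In the OP37 libraries 10 of the 28 genes were lower than in the L2-L3 larvae of SP117 and BC4289 and 0 higher, against 7.03% of 12895 genes lower. The member median was -0.58, with the median of all genes at -0.01. On TPM these medians were 0.06 and 0.63, and the sign of 16 genes turned. There 2 genes passed, cyc-2.1 and cox-5A, both lower, against 374 of 12611 genes lower. Members minus all genes was -0.57 on both scales. All 4 complex IV genes were among the 10, with cyc-2.1, lpd-5, nuo-2, cyc-1, atp-2 and atp-3. The count was between 1 and 4 without OP37 replicate 1 or 2, or without any larval library other than SP117 replicate 4 (1 without BC4289 replicate 2), and 14 without SP117 replicate 4.

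The largest ratio was that of cyc-2.1, with 1167, 865 and 2094 FPKM in OP37, against 4345, 3274, 3273 and 3892 FPKM in SP117 larvae and 3280.0 and 3628 FPKM in BC4289 larvae (-1.47 ± 0.27, limma adjusted p = 0.0103). For cox-5A (Y37D8A.14) the values were 333, 353 and 754 FPKM in OP37, against 1315, 944, 1163 and 974 FPKM in SP117 larvae and 1221 and 1296 FPKM in BC4289 larvae (-1.39 ± 0.28, adjusted p = 0.0143). For cox-5B (F26E4.9) they were 542, 456 and 929.7 FPKM in OP37, against 1611, 1331, 1516 and 890.4 FPKM in SP117 larvae and 1618 and 1602 FPKM in BC4289 larvae (-1.24 ± 0.28, adjusted p = 0.0217). In each of these genes replicate 3 of OP37 was well above replicates 1 and 2. For cox-5B it lay above the lowest larval library. The gene lpd-5 (ZK973.10), an accessory subunit of complex I, had a ratio of -1.11 ± 0.19 (adjusted p = 0.00818).

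Against VC100 embryos, the stage their labels give, OP37 had 4 genes higher and 2 lower, against 28.0% of 13469 genes higher and 38.2% lower. The member median was -0.14 and that of all genes -0.43. The higher genes were atp-1, nuo-5, sdha-1 and ucr-2.1. For atp-1 OP37 had 1782, 1775 and 1247 FPKM, against 613, 733 and 691 FPKM in VC100 (1.22 ± 0.28, limma adjusted p = 0.00562). For nuo-5 it had 141, 149 and 106 FPKM, against 61.1, 60.7 and 65.8 FPKM in VC100 (1.06 ± 0.27, adjusted p = 0.00873). For sdha-1 it had 114, 124 and 107 FPKM, against 50.5, 70.7 and 75.4 FPKM in VC100 (0.83 ± 0.28, adjusted p = 0.0301). These calls held on TPM. Those of atp-1 and nuo-5 held in every alternative, while those of sdha-1 and ucr-2.1 were lost with the replicate number as a block and without VC100 replicate 2 or 3 or OP37 replicate 1 or 2. The lower genes were nduf-2.2 and cox-5B. For nduf-2.2 OP37 had 19, 13.6 and 7.9 FPKM, against 55.1, 27.6 and 32.9 FPKM in VC100 (-1.53 ± 0.42, adjusted p = 0.0125). For cox-5B it had 542, 456 and 929.7 FPKM, against 2113, 1110.1 and 1115 FPKM in VC100 (-1.17 ± 0.40, adjusted p = 0.0303). The libraries did not overlap in either, and cox-5B did not pass with median-centred libraries or without VC100 replicate 1 or 3 or OP37 replicate 1 or 2. In place of 6 genes, 3 passed without VC100 replicate 3 or OP37 replicate 1 or 2, 4 without VC100 replicate 2 and 10 without OP37 replicate 3. With median-centred libraries 9 genes were higher and 1 lower, against 4630 of 13469 genes higher and 4265 lower. Early embryo markers summed to 7.95 to 16 FPKM in OP37, where tbx-37 and tbx-38 were listed at 0 in each library, against 199.8 to 262 FPKM in VC100, so stage and strain cannot be told apart in this comparison.

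**Figure D4:**
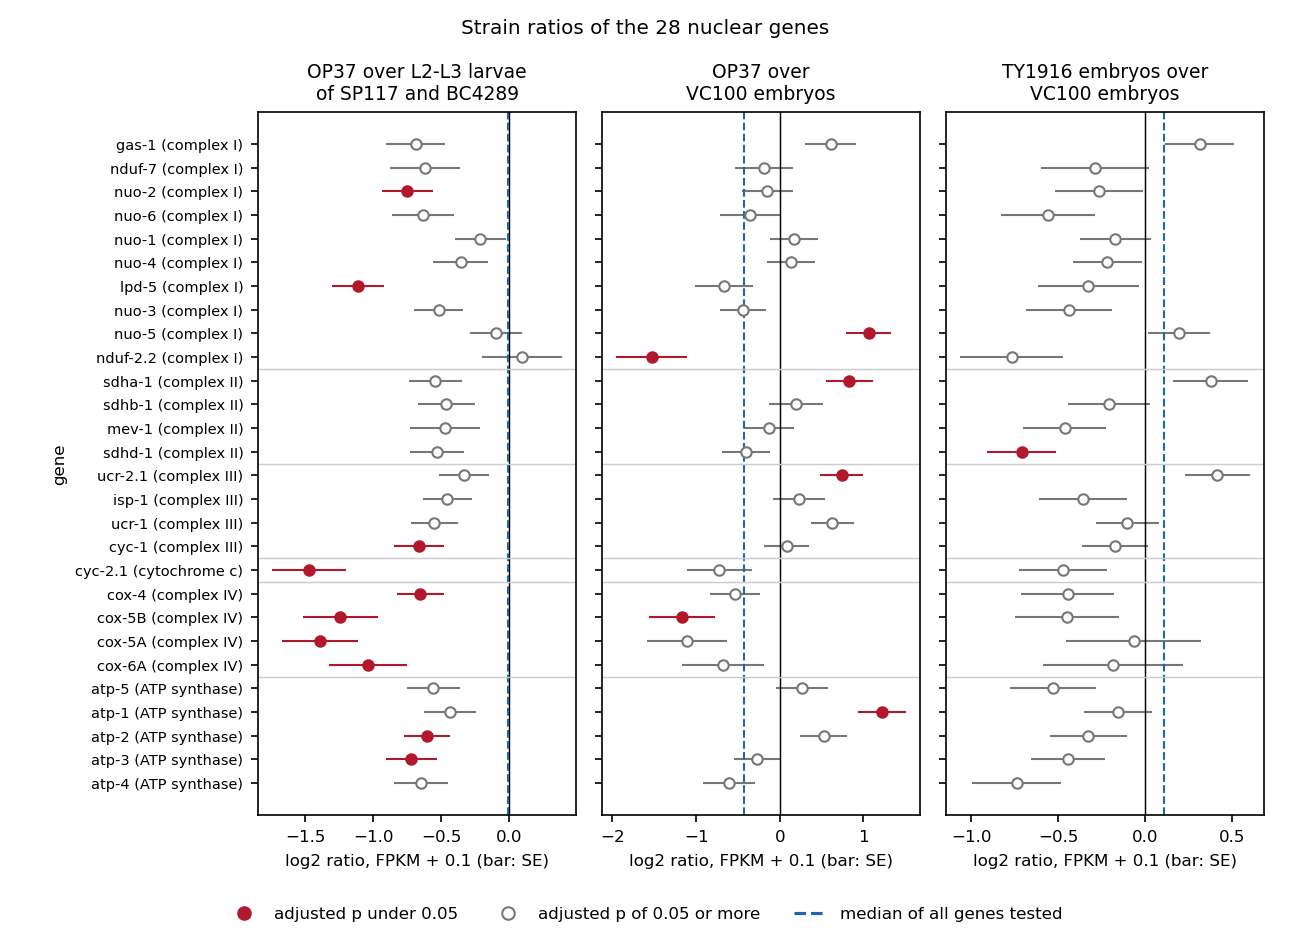
Log2 ratio (x axis, error bar 1 SE) of each nuclear gene in OP37 over L2-L3 larvae of SP117 and BC4289, OP37 over VC100 embryos and TY1916 over VC100 embryos, with filled points past an adjusted p of 0.05 and the dashed line at the median of all genes tested. The 4 complex IV genes and cyc-2.1 lie to the left in the OP37 panels, and sdhd-1 is the filled point in the TY1916 panel (-0.71). On TPM the sign of 16, 2 and 2 genes turned.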

How the data were processed

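Whole-worm mRNA-seq of 23 libraries was analysed. The authors aligned reads with HISAT2 2.2.1 to WS220 (ce10) and computed FPKM with Cufflinks 2.2.1. The deposited files list FPKM and TPM for 20390 genes, without read counts, and TPM equals FPKM scaled to a sum of 1000000. Groups came from the sample labels. Names came from RefSeq (assembly WBcel235), which matched 19880 identifiers, all 28 nuclear members among them, and the 18 DNA-seq samples were not analysed here. The members and gene lists were chosen with earlier results of these data known.

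Values were log2(FPKM + 0.1), so ratios of low genes are understated. Genes with a mean of at least 1 FPKM over the libraries of a comparison were fitted with limma 3.58.1 (R 4.3.3, lmFit and eBayes with a trend), and p-values were two-sided and Benjamini-Hochberg adjusted over all genes tested at 0.05. Genes whose quantification had failed anywhere, 51 in all, were left out. The study's own test used read counts, which were not used here. Each fit held the groups compared, and OP37 was set against the mean of the larval groups. The steps were tested on simulated data with 200 changed genes, for both young adult over larvae comparisons and for TY1916 over VC100 embryos. At a log2 change of 0.6, 0 of the 200 were recovered in each. At a log2 change of 2, 128 (SP117), 103 (BC4289) and 108 (TY1916) were recovered. A member that did not pass may therefore still differ. The simulation did not match the far larger number of genes that passed in the stage comparisons. Genes given with every library were the ends of each complex by SP117 ratio of young adults over larvae, members past the threshold between strains (up to 3 each way) and gas-1. Genes of the lists were named at most 2 each way by size. Alternatives were pseudocounts of 1 and 0.01, no filter, a mean of at least 5 FPKM, TPM, median-centred libraries, all 23 libraries in one fit, the replicate number as a block and each library left out. TPM counts of the gene lists were added after seeing the data. Depth is known only as a relative estimate from FPKM steps below 0.6. Figures were drawn with matplotlib 3.10.9.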

Additional observations from a re-analysis of the deposited data

Results flagged for a closer look

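SP117 L2-L3 larvae are the only group of 4 libraries, and in 4 of the 28 nuclear genes 1 library lay far from the others by Dixon's gap criterion. Chance gives this in about 1 of 20 groups. The gap as a share of the range was 0.915 for sdha-1 (124 FPKM in replicate 4, 181 to 186 FPKM in the others), 0.945 for cyc-1 (357 against 472 to 478 FPKM) and 0.831 for ucr-1 (332 against 426 to 445 FPKM), with replicate 4 low in each. It was 0.849 for mev-1, where replicate 1 was high (653 against 309 to 361 FPKM). Without replicate 4, 26 genes were lower in SP117 young adults and 20 were higher than in embryos.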

How the results depend on the processing

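The counts of members passing changed with scaling, with the libraries in the fit and with single libraries. On TPM they were 14 for SP117 young adults over L2-L3 larvae (22 on FPKM), 8 for BC4289 (24), 8 for SP117 larvae over embryos (17), 2 for TY1916 over VC100 embryos (1) and 2 for OP37 over larvae (10). On TPM the ratios of sdhd-1 (0.0753) and cox-4 (0.0057) in BC4289 young adults over larvae turned sign, as did those of sdhd-1 (-0.0383), cox-4 (-0.33) and atp-4 (-0.27) in SP117 larvae over embryos, none past the threshold. That of cox-4 was -0.0033 and 0.4266 without SP117 embryo replicates 1 and 2. Median-centred libraries gave 27 for SP117 larvae over embryos and 10 for OP37 over VC100. All 23 libraries in one fit gave 15 for BC4289 stages, 5 for TY1916, 19 for OP37 over larvae and 16 for OP37 over VC100, and no filter gave 5 for OP37 over larvae. With the replicate number as a block the count was 0 for TY1916, 26 and 16 for SP117 and BC4289 stages and 4 for OP37 over VC100. Same-numbered libraries did not deviate together (2 of 20 correlations over 0.1, from -0.204 to 0.234), so the numbers were not taken as pairs. With single libraries left out the counts ran between 16 and 27 (SP117 stages), 19 and 24 (BC4289 stages), 11 and 21 (SP117 larvae over embryos, lowest without embryo replicate 1), 0 and 2 (TY1916), 0 and 1 (SP117 over BC4289 young adults, 1 without BC4289 replicate 2), 1 and 14 (OP37 over larvae) and 3 and 10 (OP37 over VC100). A lone library left in a group was assumed to vary like the others. The cause of these changes was not tested. Of the calls, 14 of 22, 6 of 24 and 8 of 17 held in every alternative for the stages (SP117, BC4289, SP117 larvae over embryos), 0 of 1 for TY1916, 0 of 10 for OP37 over larvae and 3 of 6 for OP37 over VC100. Rescaling to the nuclear sum was not run, since with mitochondrial genes at 0 it repeats TPM.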
